A study of Homo sapiens with 6 samples.

Results

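NRF2 antioxidant response genes are described here as 9 genes chosen by name from the 58735 genes of the expression table. They are NFE2L2, which encodes the transcription factor NRF2, KEAP1, which encodes its inhibitor, and the target genes NQO1, HMOX1, GCLC, GCLM, TXNRD1, SRXN1 and PGD. Their RNA was measured in HCT116 cells, a human colorectal carcinoma line, by RNA-seq of 6 libraries. The control group (CTR) held 3 libraries of control-transfected cells, whose genotype is labelled WT, and the miR-8485 group held 3 libraries of cells transfected with miR-8485 mimics. A mimic is a short synthetic RNA that acts as the mature miRNA, and per the study's methods it was given at 50 nM and the cells were collected after 48 h. Both groups are cells of 1 line, and the sources used here do not give the control RNA's sequence or its dose. Values are FPKM, fragments scaled by gene length and by the library total, and the libraries held between 17473874 and 18480047 fragments on listed genes. Of the 8 colon epithelial markers checked, EPCAM, CDH1, KRT8, KRT18, KRT19 and CDX2 were expressed, whereas VIL1 and LGALS4 did not exceed 0.0639 and 0.0836 FPKM in any library. Among markers of leukocytes, fibroblasts and endothelium, CD3E and DCN were listed at 0 in every library, PTPRC, COL1A2, PECAM1 and VWF did not exceed 0.202 FPKM, and COL1A1 lay between 4.05 and 6.40 FPKM. Some markers differed between the groups, as KRT8, KRT18 and KRT19 fell by 0.62, 0.97 and 0.58 on the log2 scale and CDX2 and COL1A1 rose by 0.81 and 0.56, and their part in the results was not tested.

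NRF2 is the main activator of the cell's defence against oxidants and reactive chemicals. In unstressed cells, KEAP1 holds NRF2 to a CUL3 ubiquitin ligase and the factor is degraded by the proteasome. When oxidants or electrophiles modify cysteines of KEAP1, NRF2 accumulates, pairs with a small MAF protein (MAFF, MAFG or MAFK) and binds antioxidant response elements near genes for glutathione synthesis, thioredoxin reduction, NADPH supply and heme breakdown. BACH1 also pairs with small MAF proteins and represses many of the same elements, with HMOX1 as its best known target. Much of this control acts on the NRF2 protein, which RNA-seq does not measure.

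The genes did not move in 1 direction. HMOX1 and KEAP1 were higher in the miR-8485 libraries, by 1.42-fold and 1.22-fold, while GCLC, GCLM and TXNRD1 were lower by 1.40-fold, 1.38-fold and 1.35-fold and NQO1 by 1.09-fold. NFE2L2, SRXN1 and PGD did not pass the threshold. Differences were tested with limma, a linear model that shares variance estimates between genes, on log2(FPKM + 0.1) for the 12349 genes with a mean of at least 1 FPKM. Below, log2FC is the log2 fold change of miR-8485 over CTR, SE its standard error, and limma adjusted p the p-value after Benjamini-Hochberg adjustment over all 12349 genes. All 9 genes passed this filter. At a limma adjusted p under 0.05, 2 of the 9 were upregulated and 4 downregulated, whereas among all tested genes 29.1% were upregulated and 30.5% downregulated, together 59.6%. The libraries of the groups did not overlap for 7 of the 9 genes, against 66.5% of all tested genes, so that the share of genes that moved was near the background. The median log2FC was -0.11 for the 9 genes and -0.0041 for all tested genes.

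**Figure D1:**
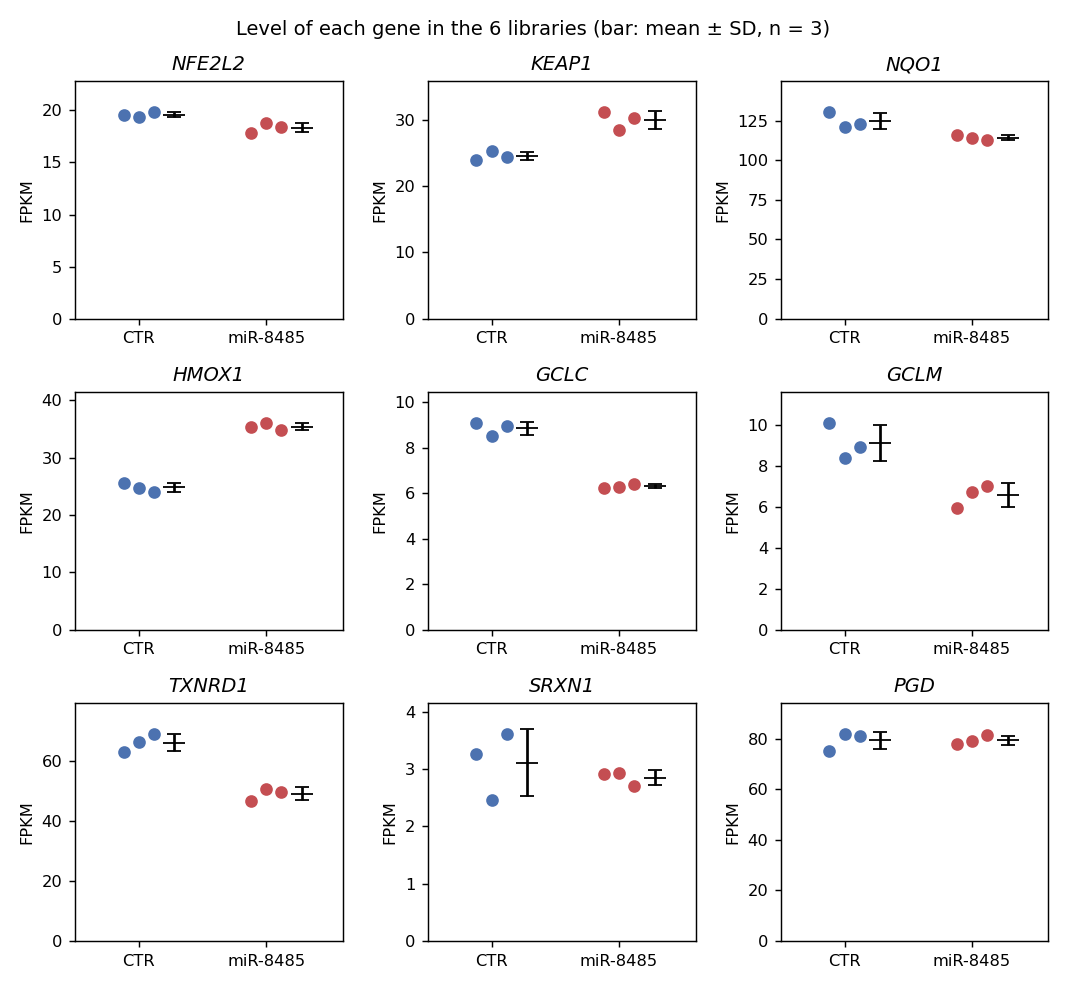
Level in FPKM (vertical axis, from 0) of each of the 9 genes in the 3 CTR libraries (blue points) and the 3 miR-8485 libraries (red points), with the mean and SD of each group as a black bar. HMOX1 and KEAP1 were higher in every miR-8485 library, TXNRD1, GCLC and GCLM were lower, and the groups of PGD and SRXN1 overlapped.

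The order of the levels was the same in both groups. In CTR, NQO1 was highest with a mean of 125 FPKM, followed by PGD with 79.3, TXNRD1 with 66.2, HMOX1 with 24.8, KEAP1 with 24.5, NFE2L2 with 19.6, GCLM with 9.14, GCLC with 8.86 and SRXN1 with 3.11 FPKM. The CTR ranges of HMOX1 and KEAP1 overlapped, as did those of GCLM and GCLC, and all other neighbours in the order lay apart. In the miR-8485 group the ranges of HMOX1 (34.9 to 36.0 FPKM) and KEAP1 (28.5 to 31.2 FPKM) lay apart, and those of GCLM and GCLC overlapped again. FPKM divides by the listed length of each gene, and whether the RNA in these cells has that length was not measured. The order of levels between genes is therefore approximate.

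The antioxidant response element has the core TGACNNNGC, and its best known form is TGACTCAGC. To show where the latter stands near the 9 genes, both strands were searched from 10000 bases before to 500 bases after the start of the canonical GENCODE transcript. The copies are given with their flanks, because this is the element through which NRF2 and BACH1 are known to act. Capitals mark the element, and each window is written 5′ to 3′ on the strand that reads it, in hg38.
NQO1, 451 bases before the start, chr16:69726998-69727024, minus strand: cagtcacagTGACTCAGCagaatctga
HMOX1, 3936 bases before the start, chr22:35377147-35377173, minus strand: aggcactggTGACTCAGCaaaatctag
HMOX1, 8986 bases before the start, chr22:35372097-35372123, minus strand: tctagaccgTGACTCAGCgaaaacaga
HMOX1, 9015 bases before the start, chr22:35372068-35372094, minus strand: ccgggaccgTGACTCAGCgaaaacaga
HMOX1, 9073 bases before the start, chr22:35372010-35372036, minus strand: tcgggaccgTGACTCAGCaggaaaaac
GCLC, 3152 bases before the start, chr6:53548240-53548266, plus strand: gcctccccgTGACTCAGCgctttgtgc
HMOX1 thus held 4 copies, NQO1 and GCLC 1 each, and the windows of the other 6 genes held 0. Of the windows of 12276 tested genes, 13.1% held at least 1 copy. The element was therefore found both near a gene that rose and near genes that fell. A match is a run of letters and not a measured binding site.

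The looser core was searched in the RefSeq promoters of GRCh38.p14, which run from 250 bases before to 50 bases after the start and hold 8 of the 9 genes (HMOX1 has no entry). They are shown because they hold the looser core close to the start of genes without the exact form. The core was found in GCLM, TXNRD1 and PGD, and 13.6% of all 27305 promoters held it.
GCLM, chr1:93909447-93909473, plus strand: ggaagacaaTGACTAAGCagaaatcgt
TXNRD1, chr12:104215671-104215697, plus strand: cacgggctaTGACTTCGCtgttgtcac
TXNRD1, chr12:104215762-104215788, minus strand: tgtgggaacTGACGGAGCcgaaggacg
PGD, chr1:10398854-10398880, minus strand: gcacctagaTGACATTGCcccggcgag
GCLM and TXNRD1 fell and PGD did not pass the threshold. The promoters of NFE2L2, KEAP1, NQO1, GCLC and SRXN1 held 0 copies of the core in this window.

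**Figure D2:**
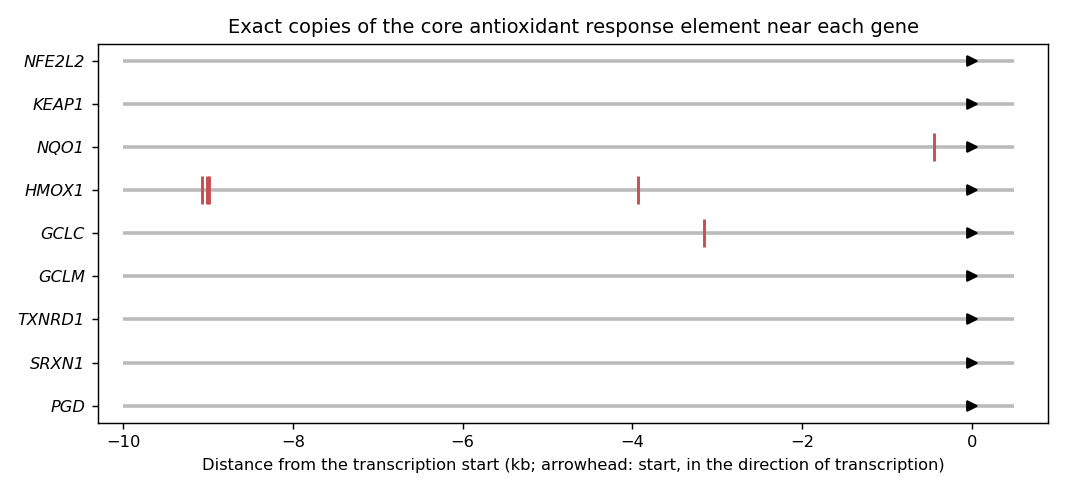
Position of each exact copy of TGACTCAGC on either strand (red ticks), in kilobases from the transcription start (arrowhead), for the 9 genes. HMOX1 had 4 copies, NQO1 and GCLC had 1 each and the other genes had 0.

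NFE2L2 (ENSG00000116044), at chr2:177227595-177392697 (minus strand) in hg38, had 19.5, 19.4 and 19.8 FPKM in CTR replicates 1 to 3 and 17.9, 18.8 and 18.4 FPKM in miR-8485 replicates 1 to 3. Every miR-8485 library lay below every CTR library, but by a small margin. The means were 19.6 ± 0.241 FPKM (SD, n = 3) and 18.4 ± 0.467 FPKM (SD, n = 3), and the log2FC was -0.09 (95% interval -0.19 to 0.0069, limma adjusted p = 0.0965). Rescaling to TPM shifted the median over tested genes to a log2FC of -0.12, and on that scale NFE2L2 had a log2FC of -0.21 and a limma adjusted p of 0.0137. It was -0.049 with the trend against gene length removed and -0.022 with that against GC content removed (limma adjusted p = 0.367 and 0.684). The span of NFE2L2 in the table overlaps AGPS on the opposite strand, which had a mean of 10.9 FPKM, and whether the counting used strand is not given in the sources used here. The protein-coding genes whose log2 levels followed NFE2L2 most closely over the 6 libraries were ARSB, PPP1R12A and KPNA4, with Pearson correlations of 0.995, 0.994 and 0.992. Such values were common, as 1187 of 10720 genes reached 0.9, and the 6 points share 2 groups.

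KEAP1 (ENSG00000079999), the substrate adaptor that binds NRF2, is at chr19:10486120-10503741 (minus strand). It had 24.0, 25.3 and 24.4 FPKM in the CTR libraries and 31.2, 28.5 and 30.3 FPKM in the miR-8485 libraries. The groups did not overlap. KEAP1 rose from a mean of 24.5 ± 0.661 (SD, n = 3) to one of 30.0 ± 1.38 FPKM (SD, n = 3), with a log2FC of 0.29 (SE 0.05, limma adjusted p = 0.00185). The log2FC was 0.17 after rescaling to TPM and 0.18 with the trend against GC content removed, and the call held in both. NFE2L2 RNA per KEAP1 RNA was 0.815, 0.767 and 0.815 in CTR and 0.573, 0.660 and 0.608 in miR-8485. The log2 ratio differed by -0.38 between the groups, which did not overlap. The exact permutation test gave a two-sided p of 0.10, the smallest that 3 libraries against 3 allow, or 0.20 adjusted over the 2 ratios tested.

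HMOX1 (ENSG00000100292), which encodes the inducible heme oxygenase that breaks heme down to biliverdin, iron and carbon monoxide, is at chr22:35380361-35394214 (plus strand). It had 25.7, 24.8 and 24.1 FPKM in CTR and 35.3, 36.0 and 34.9 FPKM in miR-8485. The gap between the groups was wider than the spread within either. The HMOX1 mean was 24.8 ± 0.810 FPKM (SD, n = 3) in CTR and rose to 35.4 ± 0.596 FPKM (SD, n = 3), with a log2FC of 0.51 (SE 0.04, limma adjusted p = 5.68e-05), on 1048 to 1597 fragments per library. Of all tested genes, 69.0% changed by less. The change was the largest of the 9 genes here, but not after rescaling to TPM, where HMOX1 had 0.40 and GCLC -0.60, nor with the trend against GC content (GCLC -0.45) or gene length (GCLM -0.44) removed or without CTR replicate 2 (GCLM -0.53). HMOX2, the constitutive heme oxygenase, had means of 19.7 FPKM in CTR and 18.5 FPKM in miR-8485 and did not pass the threshold (log2FC -0.09, limma adjusted p = 0.303).

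GCLC and GCLM encode the catalytic and the modifier subunit of glutamate-cysteine ligase, the rate-limiting enzyme of glutathione synthesis. GCLC (ENSG00000001084), at chr6:53497341-53616970 (minus strand), had 9.08, 8.52 and 8.97 FPKM in CTR and 6.25, 6.26 and 6.40 FPKM in miR-8485. It fell by 0.48 on the log2 scale (SE 0.05, limma adjusted p = 0.00016). GCLM (ENSG00000023909), at chr1:93885205-93909456 (minus strand), had 10.1, 8.38 and 8.94 FPKM in CTR and 5.94, 6.75 and 7.04 FPKM in miR-8485. The groups of neither gene overlapped, and the replicates of GCLM were wider apart, with an SD of 0.875 FPKM in CTR against 0.299 FPKM for GCLC. GCLM fell by 0.47 on the log2 scale (SE 0.09, limma adjusted p = 0.00319). The ratio of GCLM to GCLC was 1.11, 0.984 and 0.997 in CTR and 0.950, 1.08 and 1.10 in miR-8485. Its log2 mean differed by 0.015 between the groups, less than the SD between replicates of 0.097 in CTR and 0.12 in miR-8485 (exact permutation test, two-sided p = 1.0, also after adjustment over the 2 ratios).

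TXNRD1 (ENSG00000198431), the cytosolic thioredoxin reductase, is at chr12:104215779-104350305 (plus strand). It had 63.2, 66.4 and 69.0 FPKM in CTR and 46.7, 50.9 and 49.8 FPKM in miR-8485, with no overlap. The mean was 66.2 ± 2.90 FPKM (SD, n = 3) in CTR and fell to 49.1 ± 2.18 FPKM (SD, n = 3), with a log2FC of -0.43 (SE 0.05, limma adjusted p = 3.23e-04), on 5625 to 8383 fragments per library. Its span holds RPL18AP3, a ribosomal protein pseudogene on the same strand with a mean of 253 FPKM, with which the counting could have divided fragments. SRXN1 (ENSG00000271303), at chr20:646615-653370 (minus strand), encodes sulfiredoxin, which restores overoxidised peroxiredoxins. It had 3.27, 2.46 and 3.60 FPKM in CTR and 2.91, 2.93 and 2.70 FPKM in miR-8485. The CTR libraries spread around the miR-8485 libraries on both sides. Its log2FC was -0.11 (95% interval -0.43 to 0.22, limma adjusted p = 0.531), from only 120 to 176 fragments per library, and was 0.0053 without CTR replicate 3 and -0.26 without CTR replicate 2.

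NQO1 (ENSG00000181019), the quinone reductase most often used as a readout of NRF2, is at chr16:69706996-69726951 (minus strand). It had 130, 121 and 123 FPKM in CTR and 116, 114 and 112 FPKM in miR-8485. Every miR-8485 library lay below every CTR library. NQO1 passed the threshold narrowly, with a log2FC of -0.13 (SE 0.04, limma adjusted p = 0.0373). The call was lost under 4 other settings, among them median-of-ratios scaling between libraries (-0.12, limma adjusted p = 0.0505) and removal of the trend against GC content (-0.083, limma adjusted p = 0.134), and with any miR-8485 library or CTR replicate 3 left out. Rescaled to TPM it was -0.24. PGD (ENSG00000142657), at chr1:10398592-10420144 (plus strand), encodes 6-phosphogluconate dehydrogenase, an NADPH-producing enzyme of the pentose phosphate pathway. It had 75.2, 81.7 and 80.9 FPKM in CTR and 77.9, 79.1 and 81.3 FPKM in miR-8485. The groups overlapped, and the log2FC of 0.0032 had a 95% interval of -0.11 to 0.11 (limma adjusted p = 0.958).

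**Figure D3:**
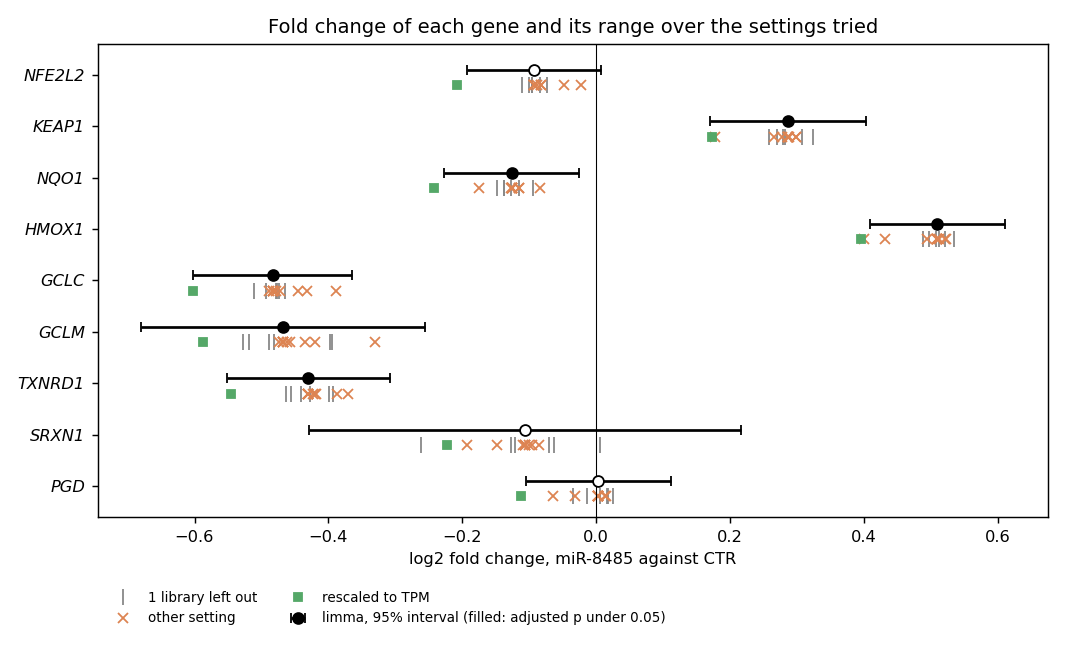
Log2FC of each gene between miR-8485 and CTR (horizontal axis) from limma with its 95% interval (circles, filled at a limma adjusted p under 0.05), and below each the values with 1 library left out (grey ticks), under other settings (orange crosses) and after rescaling to TPM (green squares). HMOX1 and KEAP1 stayed above 0 and GCLC, GCLM, TXNRD1, NQO1 and NFE2L2 below 0 under every setting drawn, while PGD and SRXN1 crossed 0.

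The other genes of the pathway were taken from 6 lists by role, 84 genes in all, of which 70 passed the filter. Of these, 25 were upregulated and 23 downregulated at a limma adjusted p under 0.05, with a median log2FC of 0.034. Of the 14 regulators, 3 were upregulated and 7 downregulated, beside 29.1% and 30.5% of all tested genes. The thioredoxin and peroxiredoxin list also held the superoxide dismutase genes SOD1 and SOD2 and the catalase gene CAT, all upregulated. Of its 12 tested genes, 9 were upregulated and 1 downregulated, beside the same shares. The smallest of these rises were those of PRDX3 (0.13) and SOD1 (0.18). The count for this list was made only on the FPKM as deposited and not repeated under other settings. The difference between lists was not tested.

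Among the partners of NRF2, MAFG had 15.5, 16.6 and 17.4 FPKM in CTR and 9.39, 7.82 and 9.73 FPKM in miR-8485. It fell by 0.88 on the log2 scale (SE 0.09, limma adjusted p = 1.37e-04). Of the other small MAF genes, MAFF fell by 0.52 (limma adjusted p = 2.76e-04), and MAFK had overlapping groups and a log2FC of 0.16 (limma adjusted p = 0.131). BACH1, the repressor, was low, with 2.72, 2.62 and 2.74 FPKM in CTR and 1.33, 1.53 and 1.45 FPKM in miR-8485. It fell by 0.86 (SE 0.10, limma adjusted p = 2.65e-04). The related factors NFE2L3 and NFE2L1 fell by 0.74 and 0.24. NFE2L3 was at 18.9 to 19.4 FPKM in CTR and 11.2 to 11.7 FPKM in miR-8485, so that its range overlapped that of NFE2L2 in CTR and lay below it in miR-8485.

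In the ligase that degrades NRF2, CUL3, the scaffold, fell by 0.31 (limma adjusted p = 0.00257), opposite to KEAP1, and RBX1, its RING subunit, had a log2FC of 0.23 with overlapping groups (limma adjusted p = 0.118). The fall of CUL3 was smaller with the trend against gene length (-0.19) or GC content (-0.18) removed. RBX1 passed as higher with voom (0.24), with a replicate block (0.23) and without CTR replicate 1 (0.32), and had 0.12 without CTR replicate 2 and 0.11 on the TPM scale. BTRC, which serves another, KEAP1-independent ligase for NRF2, fell by 0.30 (limma adjusted p = 0.00337). The genes of proteins that bind KEAP1 or NRF2 and spare NRF2 from degradation did not all pass. TRIM16 rose by 0.72 (limma adjusted p = 5.8e-05), from 4.75 to 5.31 FPKM in CTR to 8.03 to 8.55 FPKM in miR-8485, with the limit that TRIM16L, a close paralog, could share its fragments. SESN2, which aids the degradation of KEAP1, rose by 0.36 (limma adjusted p = 9.34e-04) and PALB2 by 0.27 (limma adjusted p = 0.0119), a call that was lost after rescaling to TPM (0.16, limma adjusted p = 0.116). SQSTM1, the autophagy receptor that sequesters KEAP1, had a log2FC of 0.036 (limma adjusted p = 0.447), and DPP3 one of -3.4e-04 (limma adjusted p = 0.997). SQSTM1 had a log2FC of -0.080 on the TPM scale and passed as higher with the trend against gene length removed (0.11, limma adjusted p = 0.0364).

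A miRNA finds mRNAs mainly by its seed, and that of the mimic, from the sequence in the study's methods, pairs with TGTGTGT. In the canonical 3′ UTRs of the 9 genes, which measure 477 to 3791 bases, TGTGTGT was found 0 times, while 28.9% of the 10675 tested genes with a canonical 3′ UTR held it. Of the 14 regulators 8 held it, with the most copies in BACH1, which had 15 overlapping copies in 3315 bases. SLC7A11, which had the largest fall on the lists and was picked by name, also held 15, in 7859 bases. The first copy in these and in MAFG and NFE2L3, which fell as well, is shown with its flanks, in GRCh38. Capitals mark the first copy and those that overlap it within the window.
BACH1, chr21:29344625-29344651, plus strand: caaaagaattTGTGTGTGTGTGTGTGT
SLC7A11, chr4:138170288-138170314, minus strand: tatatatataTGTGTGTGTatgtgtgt
MAFG, chr17:81919373-81919399, minus strand: gtttcagataTGTGTGTacacttctga
NFE2L3, chr7:26186597-26186623, plus strand: cgtaactcctTGTGTGTatattaaatc
SQSTM1, with 4 copies, is shown for contrast, since it did not pass the threshold on the FPKM as deposited.
SQSTM1, chr5:179836758-179836784, plus strand: ggagggtcccTGTGTGTGTGTGTgctg
MAFK also held 4 copies and did not pass, and DPP3 held 1 and did not pass. BTRC held 2 and fell, and SESN2 held 2 and rose. MAFF, CUL3 and NFE2L1 held 0 and fell, TRIM16 and PALB2 held 0 and rose, and RBX1 held 0 and did not pass. Elsewhere on the lists, CHAC1 and MTHFD2 held 1 each and fell, while IDH2 with 2 and FECH with 1 did not pass. A link between the copies and the changes was not tested. Whether the 3′ UTRs in these cells are the canonical ones was not measured.

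Of the 13 glutathione genes tested, 6 were upregulated and 4 downregulated, beside 29.1% and 30.5% of all tested genes. SLC7A11, the cystine transporter that feeds glutathione synthesis, had the largest fall on the 6 lists. It had 1.89, 2.01 and 2.05 FPKM in CTR and 0.704, 0.705 and 0.648 FPKM in miR-8485, a log2FC of -1.41 (SE 0.15, limma adjusted p = 1.76e-04), or -0.82 with a pseudocount of 1. GSR, which reduces oxidised glutathione, fell by 0.51 and CHAC1, which degrades glutathione, by 0.49. GGT1, which cleaves glutathione outside the cell, rose by 0.80, with near-identical relatives that could share its fragments. The glutathione peroxidases GPX4 and GPX1 rose by 0.48 and 0.41. The rise of GPX1 was 0.21 (limma adjusted p = 0.0573) with the trend against gene length removed. GSTO1 and MGST1 did not pass the threshold, with log2FC values of -0.064 and -0.12. GSTO1 passed as lower with the trend against gene length removed (-0.24), and MGST1 after rescaling to TPM (-0.24) and without CTR replicate 2 (-0.18).

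Among the thioredoxin and peroxiredoxin genes, PRDX4, the peroxiredoxin of the endoplasmic reticulum, rose most. It had 38.2, 31.6 and 34.3 FPKM in CTR and 73.7, 73.0 and 65.3 FPKM in miR-8485, a log2FC of 1.03 (SE 0.08, limma adjusted p = 3.89e-05). PRDX5 and TXNRD2, the mitochondrial thioredoxin reductase, rose by 0.58 and 0.55, whereas its cytosolic counterpart TXNRD1 fell. PRDX1, an NRF2 target and the most abundant peroxiredoxin measured, was the gene of this list that fell, by 0.22 (limma adjusted p = 0.00521). TXN and PRDX2 had log2FC values of 0.10 (limma adjusted p = 0.309) and 0.015 (limma adjusted p = 0.789), and both were below 0 on the TPM scale (-0.010 and -0.10). TXN passed as higher with the trend against GC content removed (0.25) and without CTR replicate 1 (0.20), and PRDX2 as lower with the trend against gene length removed (-0.12). TXNIP, mentioned after its values were seen, was listed at 0 in all 6 libraries. Whether its RNA was absent or its fragments were left out in the counting was not tested.

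Of the 9 genes of NADPH supply tested, 1 was upregulated, 3 were downregulated and 5 were neither, beside 29.1% upregulated and 30.5% downregulated among all tested genes. PGLS, the lactonase whose product PGD uses, rose by 0.44 (limma adjusted p = 3.47e-04), while PGD did not pass. NADK fell by 0.36 and MTHFD2 by 0.27. TALDO1 and TKT of the non-oxidative branch had log2FC values of 0.034 and -0.057 and did not pass (limma adjusted p = 0.482 and 0.34). TKT passed as lower after rescaling to TPM (-0.17), with the trend against GC content removed (-0.14) and without CTR replicate 1 (-0.10).

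Of the 23 detoxification and export genes, 14 passed the filter. Of these, 3 were upregulated and 6 downregulated, beside 29.1% and 30.5% of all tested genes. AKR1C1 and AKR1C2, strongly NRF2-dependent in many cells, did not exceed 0.222 FPKM in any library, and AKR1B10 lay between 0.447 and 0.922 FPKM. These 3 were chosen for mention after their values were seen. AKR1C1 and AKR1C2 are close paralogs that could share fragments, so their low levels carry that limit. Drug exporters of the ABCC family were called in both directions. ABCC2 rose from 11.5 to 12.8 FPKM in CTR to 20.8 to 21.3 FPKM in miR-8485, a log2FC of 0.79 (limma adjusted p = 2e-05). By contrast, ABCC4 fell by 0.998 (limma adjusted p = 7.22e-05) and ABCC3 by 0.90 (limma adjusted p = 3.19e-05). TRIM16L rose by 0.50 and PTGR1, a prostaglandin reductase, by 0.36. PIR, which encodes pirin, fell by 0.27 (limma adjusted p = 0.0338), and its call was lost without CTR replicate 1 (-0.21), CTR replicate 2 (-0.26), miR-8485 replicate 2 (-0.29) or miR-8485 replicate 3 (-0.21), with limma adjusted p between 0.0614 and 0.107, and with no filter (limma adjusted p = 0.0933) or no variance trend (limma adjusted p = 0.0571). AKR1A1 and AKR1B1 did not pass (log2FC values of 0.12 and 0.034), though AKR1A1 did without CTR replicate 1 (0.18).

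Of 8 heme and iron genes tested, 3 were upregulated and 2 downregulated, beside 29.1% and 30.5% of all tested genes. The ferritin genes rose together with HMOX1. FTL had 1666, 1548 and 1543 FPKM in CTR and 2495, 2501 and 2353 FPKM in miR-8485, a log2FC of 0.63 (SE 0.05, limma adjusted p = 5.55e-05), and FTH1 rose by 0.48 (limma adjusted p = 9.47e-05). Both have many processed pseudogenes, among which fragments could be divided. TFRC, the transferrin receptor, fell by 0.24 (limma adjusted p = 0.0014). BLVRA, which reduces the biliverdin that heme oxygenase makes, fell by 0.48 (limma adjusted p = 0.00481), while BLVRB, with overlapping groups, had a log2FC of -0.031 (limma adjusted p = 0.747) and passed as lower with the trend against gene length removed (-0.21, limma adjusted p = 0.0451). UROD, of heme synthesis, rose by 0.35.

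**Figure D4:**
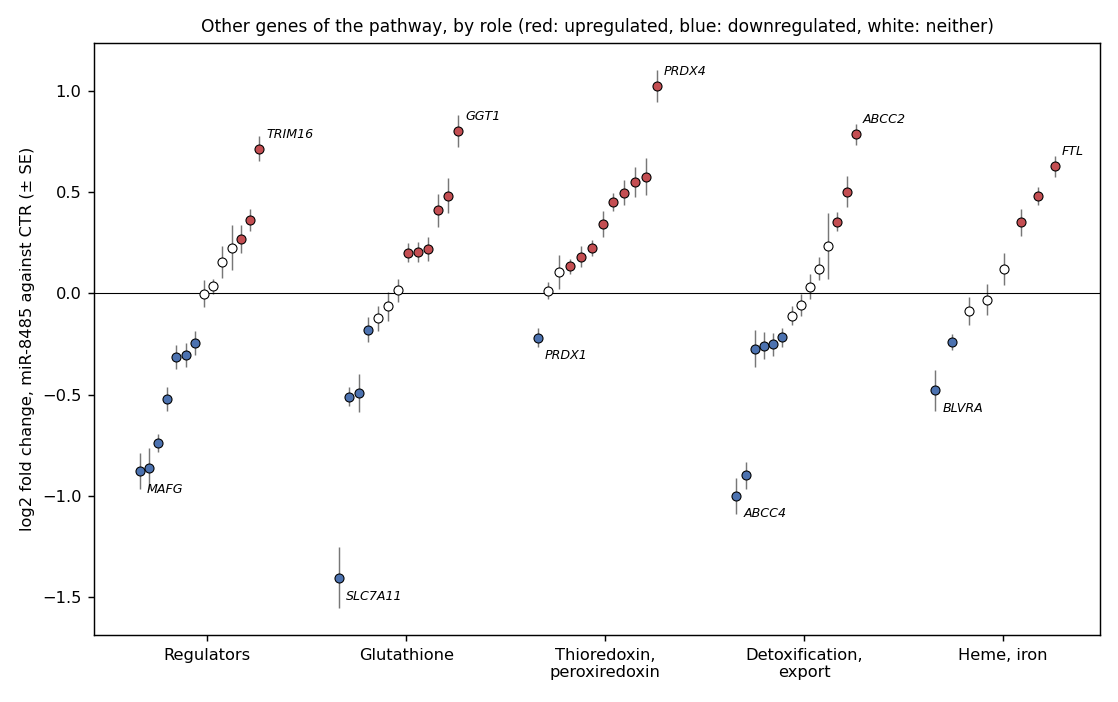
Log2FC between miR-8485 and CTR with its standard error (vertical axis) for each of the 61 tested genes of 5 lists (that of NADPH supply is not drawn), ordered within each list (horizontal axis) and coloured by the limma call. The lowest and highest gene of each list are named. SLC7A11 had the largest fall and PRDX4 the largest rise. Of the 12 genes drawn as thioredoxin and peroxiredoxin, which include SOD1, SOD2 and CAT, 9 were upregulated, beside 29.1% of all tested genes.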

How the data were processed

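RNA-seq libraries of HCT116 cells, 3 independent replicates for each group per the study's methods, were grouped by the sample titles. After trimming with fastp, the authors aligned the reads to hg38 using HISAT2 (2.0.5), counted fragments per gene with featureCounts (1.5.0-p3) and deposited FPKM values, which are scaled by gene length and library total and not further between libraries. The annotation release is not given in the sources used here. In every library, 100% of the values above 0 lay within 0.1 of whole fragments after undoing both scalings, so fragments were recovered. Columns without a sample numbered 0.

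The members and lists were chosen with earlier results of these data known. Log2(FPKM + 0.1) was fitted with limma (3.58.1, under R 4.3.3) using a variance trend, for genes with a mean of at least 1 FPKM, two-sided, with Benjamini-Hochberg adjustment and a threshold of 0.05. The study's own test needs counts and was not used on FPKM. Fold changes on this scale understate those of low genes. FPKM is relative to the library, so RNA per cell is not visible. Ratios of genes used exact permutation tests over libraries. Named genes were the 9 genes, all regulators, and from each other list the 3 largest rises and 3 largest falls among called genes and the 2 uncalled genes with the highest level. The result of 1 such gene is not reported here. SOD2 is listed under a pair of identifiers, of which the one with the higher level was used. Sequences came from GRCh38 with GENCODE release 44 and from RefSeq promoters. Python 3.11.15, scipy 1.17.1, pandas 2.3.3, numpy 2.4.6 and matplotlib 3.10.9 were used. Alternatives were other pseudocounts, filters and scalings, removal of trends against gene length or GC content (the latter, known for 12298 genes, chosen after seeing the data), no variance trend, a replicate block, each library left out, and voom, limma's test for counts, on recovered fragments, which called 3920 genes up and 3895 down.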

Additional observations from a re-analysis of the deposited data

How the results depend on the processing

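The calls of HMOX1, KEAP1, GCLC, GCLM and TXNRD1 held under every alternative run, with adjusted p of at most 0.0231 for KEAP1 and 0.0155 for GCLM in limma. With each library left out in turn, log2 fold changes ranged from 0.49 to 0.53 for HMOX1, 0.26 to 0.32 for KEAP1, -0.51 to -0.46 for GCLC, -0.53 to -0.39 for GCLM, -0.46 to -0.39 for TXNRD1, -0.15 to -0.094 for NQO1, -0.11 to -0.074 for NFE2L2, -0.26 to 0.0053 for SRXN1 and -0.034 to 0.026 for PGD. The call of NQO1 was lost with no filter and without a variance trend (-0.13 in both, adjusted p = 0.0861 and 0.0804 in limma), under median-of-ratios scaling (-0.12) and with the GC trend removed (-0.083), an alternative chosen after seeing the data. NFE2L2 passed the threshold only after rescaling to TPM (-0.21). PGD was below 0 after rescaling to TPM (-0.11) and with the trend against length (-0.065) or GC content (-0.031) removed. Of the 9 genes, 2 were upregulated under every alternative, and 3 to 5 were downregulated. The cause was not tested. SRXN1 was below the filter at 5 FPKM, so it has no value there, and its 120 to 176 fragments limit its precision. The log2 ratio of GCLM to GCLC ranged from -0.025 to 0.081 and that of NFE2L2 to KEAP1 from -0.44 to -0.33 with each library left out.

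Among all tested genes, TPM gave 2613 upregulated and 4725 downregulated genes, 35.6% upregulated against 48.8%. Other genes that did not pass the threshold changed sign. After rescaling to TPM these were SQSTM1 (-0.080), TXN (-0.010), PRDX2 (-0.10), TALDO1 (-0.081) and AKR1B1 (-0.081). With the length trend removed they were TXN (-0.12), PRDX2 (-0.12, adjusted p = 0.0409 in limma), TALDO1 (-0.032) and TKT (0.048), and with the GC trend removed SQSTM1 (-0.038), PRDX2 (-0.070), TALDO1 (-0.017) and AKR1B1 (-0.014). DPP3 was above 0 under median-of-ratios scaling (0.010) and voom (0.0097). With each library left out, DPP3 ranged from -0.057 to 0.047, GSTO1 from -0.12 to 0.0040, PRDX2 from -0.016 to 0.036, AKR1B1 from -0.027 to 0.083 and BLVRB from -0.093 to 0.029. Some called genes kept their call with a value moved by over 1.5 times. With the length trend removed these were FTL (0.39), PRDX5 (0.34), PRDX1 (-0.41), TFRC (-0.16) and CUL3 (-0.19). With the GC trend removed they were GPX1 (0.27), PGLS (0.25), MTHFD2 (-0.18), TFRC (-0.15), CUL3 (-0.18) and KEAP1 (0.18). TPM moved KEAP1 (0.17), NQO1 (-0.24) and PRDX1 (-0.33), and a pseudocount of 1 moved SLC7A11 (-0.82).

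No pairing by replicate number was seen, as deviations of same-numbered libraries correlated at 0.067, 0.034 and -0.064. Not every library correlated best with its own number, and whether same-numbered libraries were prepared together is not given in the sources used here. With the replicate number as a block, 3634 genes were upregulated and 3754 downregulated, the calls of the 9 genes were as without it, and RBX1 (0.23) passed the threshold, as it did with voom (0.24) and without CTR replicate 1 (0.32).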
